A study of Mus musculus with 15 samples.

Results

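Yap1 and Wwtr1, the genes of the transcriptional coactivators YAP and TAZ, are described here across 15 RNA-seq libraries of mouse liver. They were taken by name, as 2 of the 24411 genes counted per library. Their labels give 3 groups: 4 libraries are TdTomato, 6 are LATS KO (written LATS_KO) and 5 are Yap OE (written YAP_OE). The series design calls the first wild type, the second a Lats knockout and the last an over expression of Yap. TdTomato is a red fluorescent protein, used as the name of the control. Strain, age, promoter, Cre driver, the LATS gene or genes deleted, the form of Yap expressed and the number of animals behind each library are not given in the sources used here. The extraction text of the labels speaks of mice with another genotype and diet, so nothing was taken from it about these livers. No label says that libraries of a group came from different animals, and p-values therefore measure the spread between libraries only. The title of the series concerns inflammatory monocytes and cell proliferation driven by YAP, and the groups allow the question of how the mRNAs of both coactivators differ when LATS is lost or Yap is supplied.

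YAP and TAZ are paralogs that do not bind DNA themselves. When they are nuclear they join TEAD transcription factors and activate genes of growth, cytoskeleton and matrix. The Hippo kinases MST1/2 phosphorylate LATS1/2, and LATS1/2 phosphorylate YAP and TAZ, which are then held in the cytoplasm by 14-3-3 proteins or marked for degradation. This control acts on the proteins, while the measurements here are of mRNA. In liver, active YAP is known to enlarge the organ and to shift hepatocytes towards bile duct features.

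Both genes lie on the minus strand, on different chromosomes. Yap1 (ENSMUSG00000053110.13) covers chromosome 9, 7931999 to 8004596, in the GENCODE M21 annotation of GRCm38 (mm10), with up to 10 exons in a transcript. Wwtr1 (ENSMUSG00000027803.14) covers chromosome 3, 57455649 to 57575910, with up to 7 exons. The 250 bases before each start (RefSeq, GRCm38.p6) are shown because both mRNAs were higher in YAP_OE, and because the letters of the motif that TEAD factors are known to bind occur in each. The window of Yap1 is chr9:8004597-8004846 and that of Wwtr1 chr3:57575911-57576160, both on the minus strand and printed 5′ to 3′. Capitals mark GGAATG.
Yap1: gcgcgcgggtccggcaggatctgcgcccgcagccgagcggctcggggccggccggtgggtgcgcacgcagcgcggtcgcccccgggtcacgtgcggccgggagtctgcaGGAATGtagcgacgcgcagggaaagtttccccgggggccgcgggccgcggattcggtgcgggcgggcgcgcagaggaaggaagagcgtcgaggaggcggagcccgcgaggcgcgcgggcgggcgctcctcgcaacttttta
Wwtr1: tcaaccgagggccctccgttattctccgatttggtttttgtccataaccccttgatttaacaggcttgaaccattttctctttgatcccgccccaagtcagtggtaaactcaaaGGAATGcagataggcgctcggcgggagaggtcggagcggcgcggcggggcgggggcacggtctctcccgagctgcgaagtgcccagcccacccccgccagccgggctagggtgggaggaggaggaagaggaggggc
GGAATG, or CATTCC on the other strand, was found 1 time in each window, 141 bases before the start of Yap1 (chromosome 9, 8004732 to 8004737) and 136 bases before that of Wwtr1 (chromosome 3, 57576041 to 57576046). Of 32851 promoter windows of this length, 12.6% held these letters. The Yap1 window was 76.4% G and C with 44 CpG, and the Wwtr1 window 61.6% with 18 CpG, against medians of 52.4% and 6 over all windows. The AP-1 motif TGANTCA was in neither window, and was in 6.75% of all windows. Another annotated start of Wwtr1 has the same match 170 bases before it. The windows are shown for holding these letters, so the matches are no result about the 2 genes. Yap1 is also the gene supplied in YAP_OE. A match is a description of the letters, no binding was measured, and action of TEAD factors on these promoters was not tested.

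The libraries held 6166680 to 28225360 counts in genes. Libraries TdTomato 1 and LATS_KO 3 stood apart: the unmapped share of reads was 78.5% and 89.9%, with 2.53% to 16.7% elsewhere, and 8501 and 9710 genes were detected, against at least 13372. In these libraries genes such as Lats1 were at 0 counts, so group levels, tests and list counts are also given without them, as 13 libraries. LATS_KO 3 to 6 had 17.0% to 25.6% of mapped reads outside genes, against 6.34% to 6.85% in LATS_KO 1 and 2. Multiply mapped reads were 5.35% to 6.98% of mapped reads in LATS_KO 1, 2 and 3, and 11.2% to 14.3% in LATS_KO 4, 5 and 6. Albumin mRNA was at 30360 to 135616 CPM in all 15 libraries. CPM, the usual depth-scaled count, was computed on library sizes scaled by TMM factors. These factors were 1.12 to 1.46 in LATS_KO 1, 2 and 3 and 0.7275 to 0.835 in LATS_KO 4, 5 and 6. They were 0.759 to 0.956 in TdTomato and 1.02 to 1.29 in YAP_OE. Across all 13055 genes tested, the median log2 fold change from TdTomato was 0.13 in LATS_KO and 0.17 in YAP_OE. With library size alone it was 0.46 and 0.73. The labels do not say which LATS gene was deleted, and whole-gene counts include exons outside a deleted part, so they do not check the deletion. Lats1 was at 10.5 to 27.4 CPM in LATS_KO other than LATS_KO 3 and at 28.7 to 45.99 CPM in TdTomato other than TdTomato 1. Its log2 fold change was −0.94 (edgeR, adjusted p = 0.62) over all libraries and −1.10 (adjusted p = 0.025) without TdTomato 1 and LATS_KO 3.

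Yap1 was highest in YAP_OE, and its order between TdTomato and LATS_KO depended on the scaling. With TMM factors its level was 94.9, 115, 103 and 103 CPM in TdTomato 1 to 4. In LATS_KO 1 to 6 it was 86.4, 66.0, 72.1, 86.3, 81.1 and 76.6 CPM. In YAP_OE 1 to 5 it was 212, 184, 146, 196 and 181 CPM. With these factors no library of a group lay within the range of another group, and the highest LATS_KO library was below the lowest control. The share of all genes that separate in this way is not given, so the separation is a description of Yap1 only. RLE factors gave the same separation (69.4 to 83.7 CPM in LATS_KO and 92.2 to 107 CPM in TdTomato). With library size alone the separation was lost. The controls were then at 78.4 to 91.2 CPM, LATS_KO 1, 2 and 3 at 96.8, 84.0 and 105.5 CPM, and LATS_KO 4, 5 and 6 at 72.1, 59.0 and 56.8 CPM. LATS_KO 1 and 3 were thus above all controls, LATS_KO 2 within them and LATS_KO 4, 5 and 6 below. YAP_OE was above all other libraries under each scaling, at 184.7 to 252 CPM with library size alone. Yap1 rose in YAP_OE against TdTomato by 0.82 ± 0.17 (SE) on the log2 scale (edgeR, adjusted p = 0.0043, 95% interval 0.46 to 1.18), in a comparison in which 17.9% of all tested genes were called higher and 10.8% lower. The largest difference was between the manipulated groups. Yap1 was higher in YAP_OE than in LATS_KO by 1.23 ± 0.15 (edgeR, adjusted p = 0.0012, 95% interval 0.91 to 1.56), where 0.498% of genes were called higher and 0.490% lower. Between LATS_KO and TdTomato the log2 fold change was −0.41 ± 0.16 (95% interval −0.75 to −0.074), which did not pass the threshold after adjustment (edgeR, adjusted p = 0.11). In that comparison 10% of genes were called higher and 0.973% lower. DESeq2 (−0.35, adjusted p = 0.012) and limma voom with quality weights (−0.41, adjusted p = 0.013) called Yap1 lower in LATS_KO.

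The counts behind these values ranged from 649 to 6880 reads per library. Yap1 counts come from the mouse gene only, and a transgene of another sequence, or one without the untranslated regions, would be counted in part. How much of the YAP_OE level comes from a transgene was not tested. Relative to the median of all genes, the Yap1 change in YAP_OE was 0.66 with TMM scaling and 0.63 with library size alone, and in LATS_KO it was −0.54 and −0.57. Subtracting the median removes a scaling that moves all genes alike, so these pairs of values do not test the scaling. Without that subtraction the value in LATS_KO with library size alone was −0.11 (edgeR, adjusted p = 0.76). Without TdTomato 1 and LATS_KO 3, TMM-scaled Yap1 was at 99.995 to 112 CPM in TdTomato, 64.2 to 84.2 CPM in LATS_KO and 142 to 207 CPM in YAP_OE.

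**Figure D1:**
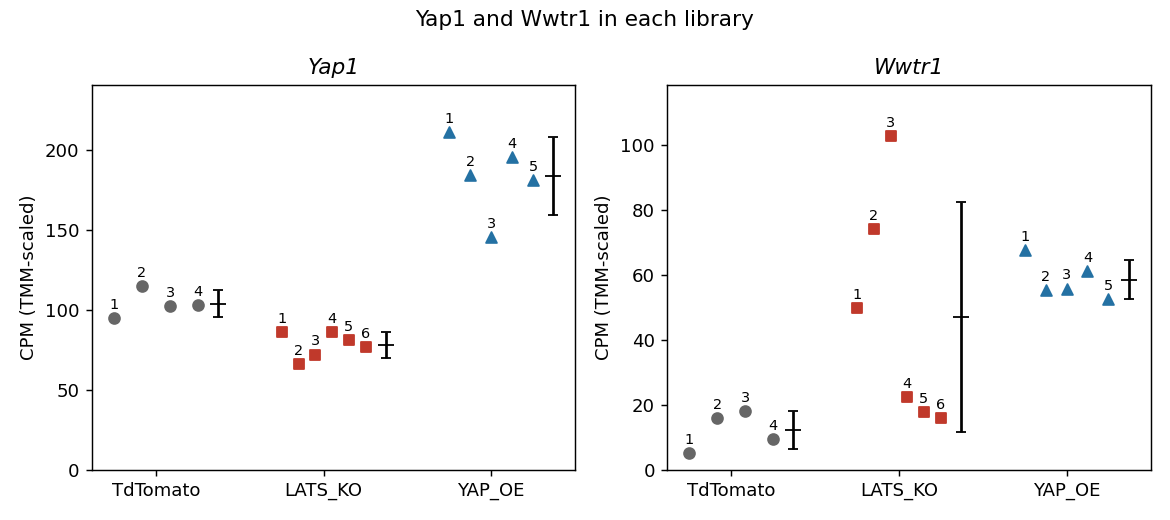
Yap1 (left) and Wwtr1 (right) in each library, in CPM after TMM scaling on axes that start at 0. Points are libraries numbered by replicate, black bars are the group mean and SD. The 3 groups of Yap1 do not overlap under this scaling, and the share of all genes that separate in this way is not given. With library size alone LATS_KO (56.8 to 105.5 CPM) spans the controls (78.4 to 91.2 CPM). Wwtr1 in LATS_KO runs from 15.98 to 103 CPM.

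Wwtr1 was low in the controls and higher in YAP_OE in every library, while the LATS_KO libraries spread over a 6.44-fold range. It was at 5.11, 15.9, 18.2 and 9.58 CPM in TdTomato 1 to 4. In YAP_OE 1 to 5 it was at 67.6, 55.5, 55.8, 61.3 and 52.6 CPM, all above the highest control. In LATS_KO 1 to 6 it was at 49.7, 74.0, 103, 22.3, 17.7 and 15.98 CPM. LATS_KO 1, 2 and 3 were above all controls, LATS_KO 4 was the lowest library above them, and LATS_KO 5 and 6 lay within the range of the controls. Wwtr1 rose in YAP_OE by 2.26 ± 0.54 against TdTomato (edgeR, adjusted p = 0.0082, 95% interval 1.11 to 3.42). It rose in LATS_KO by 1.95 ± 0.52 (edgeR, adjusted p = 0.027, 95% interval 0.83 to 3.06). Both comparisons share the TdTomato libraries. The rise in LATS_KO no longer passed without TdTomato 1, 2 or 4 or LATS_KO 2 (adjusted p = 0.068, 0.061, 0.085 and 0.059). It also did not pass without both TdTomato 1 and LATS_KO 3 (1.31, adjusted p = 0.071) or in a fit of TdTomato and LATS_KO alone (1.94, adjusted p = 0.13). The rise did not pass in voom either (0.48, adjusted p = 0.15). Voom gave LATS_KO 1, 2 and 3 weights of 0.34, 0.19 and 0.051 against 1.02 to 3.42 for the others of the group. TdTomato 1 had a weight of 0.0335, against 1.02 to 4.66 for the other controls.

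YAP_OE and LATS_KO were not told apart in their Wwtr1 level. The difference was 0.32 ± 0.45 (edgeR, adjusted p = 0.87), with a 95% interval of −0.65 to 1.28, so a difference of either sign is within it. Voom gave 1.43 (adjusted p = 8.0e-06) under the weights above. Depth was lowest for Wwtr1 in TdTomato 1, where 66 reads give an exact 95% Poisson interval of 51.0 to 84.0 reads. In the other 14 libraries it had 200 to 2411 reads. These intervals cover counting error only.

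**Figure D2:**
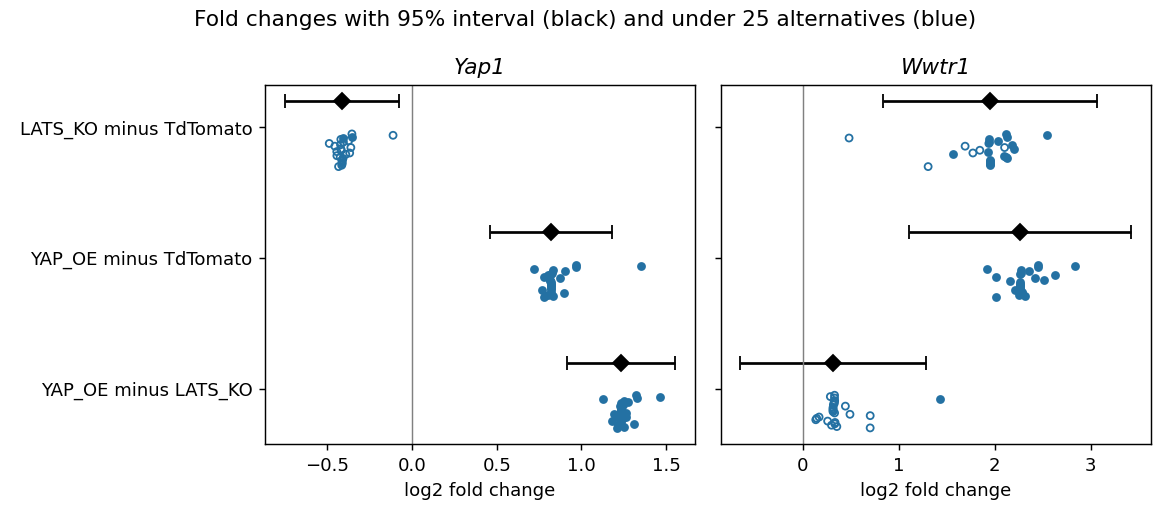
Log2 fold changes of Yap1 (left) and Wwtr1 (right) in the 3 comparisons. Black diamonds with bars are the edgeR value and its 95% interval, blue points are 25 alternatives per comparison, filled where the adjusted p is under 0.05. Wwtr1 in LATS_KO against TdTomato ranges from 0.48 to 2.54, and Yap1 in YAP_OE against TdTomato from 0.72 to 1.35.

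The balance of the paralogs differed between the groups. Per kilobase of annotated exon, Wwtr1 was below Yap1 in every TdTomato and YAP_OE library. Its level was 10.4%, 26.8%, 34.3% and 18.0% of Yap1 in TdTomato 1 to 4. In YAP_OE 1 to 5 it was 61.9%, 58.3%, 74.2%, 60.7% and 56.2%. In LATS_KO 1 to 6 it was 111%, 217%, 276%, 50%, 42.4% and 40.4%. All LATS_KO and YAP_OE libraries were above all controls, including LATS_KO 5 and 6, where Yap1 was lower and Wwtr1 within the control range. Only LATS_KO 1, 2 and 3 had more Wwtr1 than Yap1. With the length of the longest transcript in place of all exons, LATS_KO 1 was at 64.7% and LATS_KO 2 and 3 at 126% and 160%. Library size cancels in this ratio.

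The log2 ratio of Wwtr1 to Yap1 counts was −3.24 ± 0.75 (SD, n = 4) in TdTomato, −1.09 ± 1.23 (n = 6) in LATS_KO and −1.64 ± 0.15 (n = 5) in YAP_OE. It was higher by 2.16 in LATS_KO (two-sided exact permutation p = 0.0095, adjusted over 3 comparisons 0.024) and by 1.60 in YAP_OE (exact permutation p = 0.016, adjusted 0.024) than in TdTomato. These are the smallest p-values that the group sizes allow. Without any 1 of the control libraries the adjusted p was 0.054 in both, again with the raw p at the smallest value possible, and the differences were 1.84 to 2.41 and 1.28 to 1.85. LATS_KO and YAP_OE overlapped, and their difference of −0.56 did not pass (exact permutation p = 0.36, adjusted 0.36). Without both TdTomato 1 and LATS_KO 3 the LATS_KO difference was 1.52 (exact permutation p = 0.036, adjusted 0.054).

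**Figure D3:**
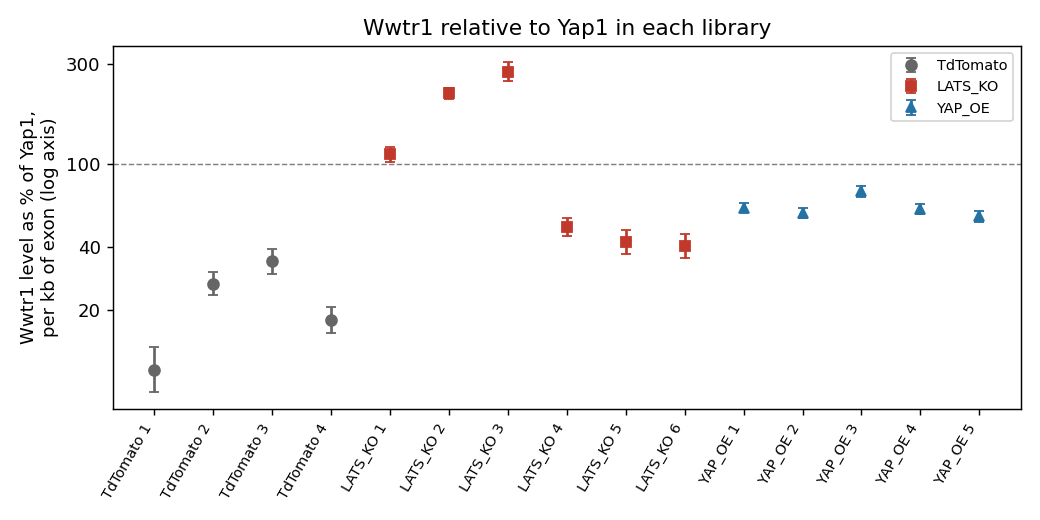
Wwtr1 level as a percentage of the Yap1 level per kilobase of exon, in each library, on a log axis. Bars are 95% Wilson intervals for counting error, and the dashed line marks equal levels. Controls lie between 10.4% and 34.3%, YAP_OE between 56.2% and 74.2%, and LATS_KO between 40.4% and 276%.

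Yap1 varied less than Wwtr1 within TdTomato and LATS_KO, while the order within YAP_OE depended on the scaling. The coefficient of variation of Yap1 was 8.0% in TdTomato, 10.4% in LATS_KO and 13.3% in YAP_OE. For Wwtr1 it was 48.9%, 75.3% and 10.2%. With library size alone the coefficient of Yap1 in LATS_KO was 25.2%, and in YAP_OE it was 14.5% for Yap1 and 14.8% for Wwtr1. Without TdTomato 1 and LATS_KO 3 the values of Yap1 were 6.60%, 10.7% and 13.4%, and those of Wwtr1 30.6%, 70.2% and 10.3%. The fitted biological coefficient of variation was 22.7% for Yap1, lower than that of all but 0.689% of tested genes, and 53.2% for Wwtr1, near the median of 57.6%. Without those 2 libraries it was 19.9% for Yap1, with 10.8% of genes lower, and 42.6% for Wwtr1, above the median of 31.6%. Per kilobase, mean Yap1 was 11.2 ± 0.90 (SD, n = 4) in TdTomato, 8.43 ± 0.88 (n = 6) in LATS_KO and 19.9 ± 2.63 (n = 5) in YAP_OE, in CPM per kb. Mean Wwtr1 was 2.55 ± 1.25, 9.86 ± 7.42 and 12.3 ± 1.25 CPM per kb. Without TdTomato 1 and LATS_KO 3, mean Yap1 was 11.3, 8.35 and 19.3 CPM per kb and mean Wwtr1 2.97, 7.33 and 11.9. In TdTomato, 75.8% of genes with a length were below Yap1 and 46.7% below Wwtr1. In LATS_KO the means of the paralogs were in the other order, 69.3% below Yap1 and 72.6% below Wwtr1, and this order was lost without those 2 libraries and with the longest transcript (10.03 CPM per kb for Wwtr1 and 14.8 for Yap1).

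Among the DNA-binding partners of YAP and TAZ, Tead1, Tead2 and Tead4 were higher in both manipulated groups and Tead3 did not pass the test. Of 7 TEAD factors and VGLL cofactors, 6 were tested, and 4 rose in LATS_KO and 4 in YAP_OE (the fourth was the cofactor gene Vgll3), against 10% and 17.9% of all genes. The median log2 fold change of the 6 was 4.20 and 5.30, against 0.13 and 0.17 for all genes. Over the 13 other libraries the counts were 3 and 4, beside 13.7% and 27.2% of all genes, and the medians 3.50 and 5.03. Tead1 was at 3.25 to 11.5 CPM in TdTomato, at 114, 149, 85.7, 16.3, 4.99 and 6.55 CPM in LATS_KO 1 to 6, while YAP_OE libraries held 59.8 to 101.03 CPM. Like Wwtr1, it was high in LATS_KO 1, 2 and 3 and near or within the control range in LATS_KO 4, 5 and 6. Tead2 was at most 0.238 CPM in TdTomato, 0.300 to 11.4 CPM in LATS_KO and 7.25 to 20.3 CPM in YAP_OE. Tead4 had 0 counts in the 4 controls and 0.180 to 19.6 CPM in LATS_KO and 17.3 to 27.7 CPM in YAP_OE. Tead3 was at 0 to 12.2 CPM in TdTomato, 10.9 to 29.6 CPM in LATS_KO and 12.3 to 19.1 CPM in YAP_OE (edgeR, adjusted p = 0.41 and 0.38). In LATS_KO the call of Tead1 was lost without any 1 control or LATS_KO 1 or 2 (adjusted p = 0.065 to 0.10) and in voom (0.18, adjusted p = 0.83), and that of Tead2 without TdTomato 2 or 4 (adjusted p = 0.051 and 0.050). None of the 6 was called between YAP_OE and LATS_KO in edgeR over 15 libraries (1 at an unadjusted p under 0.05) or DESeq2, and voom called 5 higher. Without TdTomato 1 and LATS_KO 3, edgeR called 1 of the 6 higher, beside 5.56% of all genes.

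Of 22 known target genes of YAP and TAZ, 20 were tested. In LATS_KO 12 rose and in YAP_OE 16 rose, beside 10% and 17.9% of all genes, none fell, and the median log2 fold changes were 4.08 and 4.84. Over the alternatives the LATS_KO count was 0 to 17 and the YAP_OE count 10 to 19. Without TdTomato 1 and LATS_KO 3, 21 were tested, 15 rose in LATS_KO, and 19 rose and 1 fell in YAP_OE. Of all genes 13.7% and 27.2% were then called higher, and 21.2% lower in YAP_OE. The medians of the targets were 3.84 and 5.25. Ctgf, a matricellular target, was at 0 to 0.556 CPM in TdTomato, at 1811, 2485, 3136, 82.7, 41.7 and 20.6 CPM in LATS_KO 1 to 6, while YAP_OE libraries held 265 to 465 CPM. Ankrd1, a nuclear ankyrin repeat protein, was at 0.841 to 130 CPM in LATS_KO, 140 to 283 CPM in YAP_OE and at most 0.0552 CPM in TdTomato. Axl, a receptor tyrosine kinase, was at 10.2, 112, 4.78, 42.1, 25.3 and 14.2 CPM in LATS_KO 1 to 6, at 17.8 to 37.1 CPM in YAP_OE and at most 0.527 CPM in the controls. Unlike Ctgf, it was lower in LATS_KO 1 and 3 than in LATS_KO 4, 5 and 6. Averaged over the 22 genes, log2(CPM + 1) was 1.08 to 1.82 in TdTomato and 4.57 to 5.08 in YAP_OE. In LATS_KO 1 to 6 it was 4.61, 5.21, 4.47, 3.00, 2.70 and 2.54, above all controls in each. With library size alone it was 4.75, 5.51, 4.86, 2.82, 2.42 and 2.27, and Yap1 was then also higher in LATS_KO 1, 2 and 3 than in LATS_KO 4, 5 and 6. With TMM factors Yap1 did not separate these libraries. LATS_KO 3, with the highest Wwtr1, had the highest summed target level of the 15 libraries (5273 CPM), of which Ctgf alone was 3136 CPM. In this library 6 of the 22 targets were at 0 counts. With TMM factors its average over the targets, 4.47, was below LATS_KO 1 and 2 and below every YAP_OE library. With library size alone its average, 4.86, was above LATS_KO 1 (4.75) and below LATS_KO 2 (5.51). Between YAP_OE and LATS_KO 1 target, Arhgef17, was called (4.82 ± 1.05, edgeR, adjusted p = 0.039), and 5 were at an unadjusted p under 0.05. Of all genes 0.498% were called higher there. Over the alternatives the count of targets called higher was 0 to 17. It was 4 without TdTomato 1 and LATS_KO 3, beside 5.56% of all genes. In an edgeR fit of TdTomato and LATS_KO alone, 1 gene of all tested was called, and Ctgf, Axl and Ankrd1 were at adjusted p = 0.062, 0.062 and 0.065.

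**Figure D4:**
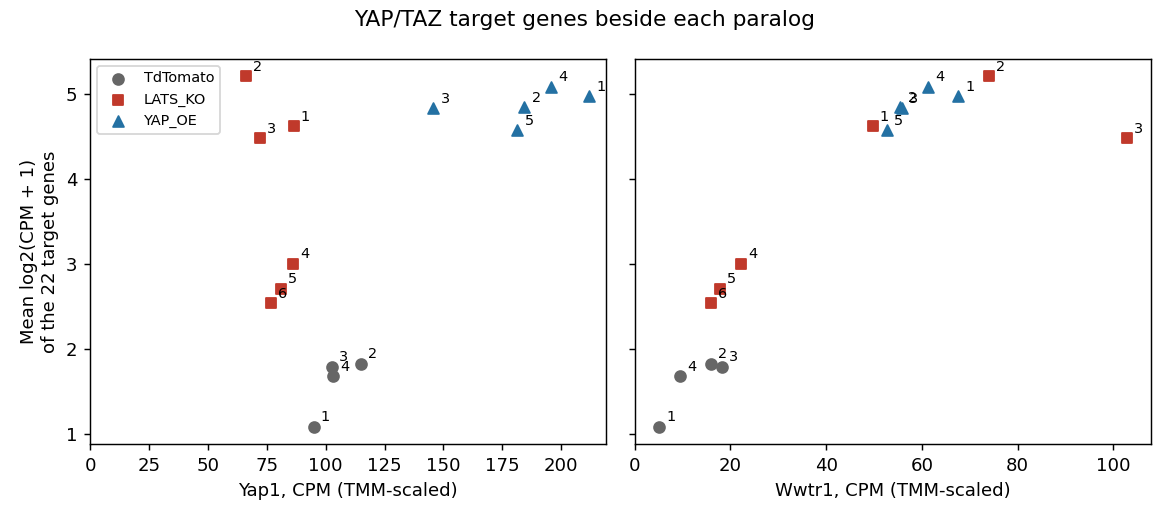
Mean log2(CPM + 1) of the 22 target genes against Yap1 (left) and Wwtr1 (right) in CPM, 1 point per library, numbered by replicate. LATS_KO libraries lie at 66.0 to 86.4 CPM of Yap1 and at 15.98 to 103 CPM of Wwtr1 with the TMM factors used here. With library size alone their Yap1 runs from 56.8 to 105.5 CPM and is higher in LATS_KO 1, 2 and 3.

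Among regulators that act on the YAP and TAZ proteins, some of the upstream ones rose. Of 27 Hippo kinases and upstream regulators, 7 rose in LATS_KO and 0 fell, and 10 rose and 2 fell in YAP_OE, with medians of 0.67 and 0.97. All genes were called higher in 10% and 17.9% and lower in 0.973% and 10.8%, so 2 falls of 27 is not above the background. Over the alternatives the rises in LATS_KO were 0 to 12, and the falls in YAP_OE 0 to 4, with 0 for library size alone. In the 13 libraries without TdTomato 1 and LATS_KO 3, 7 rose and 3 fell in LATS_KO, and 15 rose and 4 fell in YAP_OE. All genes were then called higher in 13.7% and 27.2% and lower in 3.24% and 21.2%. The falls were 11.1% and 14.8% of the 27, above the share of all genes in LATS_KO and below it in YAP_OE. Lats1 was among the falls in LATS_KO (−1.10, edgeR, adjusted p = 0.025). Lats1 and Lats2 belong to this list and the group is a Lats knockout, so its share of falls is not independent of the manipulation. The 2 that fell in YAP_OE over 15 libraries were Stk38l, a kinase related to LATS, and Taok3, which acts on MST kinases. Amotl2, an angiomotin that is also in the target list, had 17.2 to 34.3 CPM in TdTomato, 32.9 to 683 CPM in LATS_KO and 291 to 634 CPM in YAP_OE. Ptpn14, a phosphatase that binds YAP, was at most 0.318 CPM in TdTomato, 0.361 to 24.6 CPM in LATS_KO and 13.4 to 52.7 CPM in YAP_OE. Wtip, a LIM protein that binds LATS kinases, was at most 0.718 CPM in TdTomato, 0.961 to 20.2 CPM in LATS_KO and 24.3 to 43.9 CPM in YAP_OE. Lats2, a known target that closes a feedback, was at 0 to 19.6 CPM in TdTomato, 7.67 to 41.0 CPM in LATS_KO and 48.8 to 62.2 CPM in YAP_OE, and passed in neither comparison (edgeR, adjusted p = 0.70 and 0.078). It passed in YAP_OE without TdTomato 1 (1.58, adjusted p = 0.013), where it is at 0 counts, and in DESeq2 (2.23, adjusted p = 0.019). The call in LATS_KO was lost without TdTomato 4 for Amotl2 (adjusted p = 0.051) and without TdTomato 2 or 4 for Ptpn14 (adjusted p = 0.051 and 0.052), and voom called neither (0.91 and 1.65, adjusted p = 0.10 and 0.17).

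Of 14 genes for the turnover of YAP and TAZ, such as the ubiquitin ligase adaptor Btrc, 1 rose in each comparison with TdTomato, with medians of 0.063 and 0.048. That is below the 10% and 17.9% of all genes called higher and is no result about the list. The gene was Csnk1e, a kinase that takes part in their degradation, at 0 to 4.25 CPM in TdTomato, 8.23 to 26.6 CPM in LATS_KO and 22.6 to 29.8 CPM in YAP_OE. Of the 7 genes of 14-3-3 proteins, which hold phosphorylated YAP and TAZ in the cytoplasm, 1 rose in LATS_KO and 2 in YAP_OE, beside the same 10% and 17.9% of all genes, with 0 to 4 and 1 to 4 over the alternatives. With both poorly mapped libraries left out, the turnover genes had 1 rise in LATS_KO and 1 rise and 2 falls in YAP_OE. The 14-3-3 genes had 0 rises in LATS_KO (edgeR, 2 at an unadjusted p under 0.05) and 3 in YAP_OE. Of all genes 13.7% and 27.2% were then called higher, and 21.2% lower in YAP_OE. Ywhah was at 26.9 to 43.9 CPM in TdTomato, 46.4 to 153 CPM in LATS_KO and 103 to 149 CPM in YAP_OE. Ywhaz was at 53.9 to 94.8, 83.8 to 224 and 135 to 195 CPM. In LATS_KO the call of Csnk1e was lost without TdTomato 2, 3 or 4, LATS_KO 1 or 2, or any 1 YAP_OE library (adjusted p = 0.067 to 0.099). That of Ywhah in LATS_KO was lost without any 1 control or LATS_KO 1 or 2 (0.054 to 0.072), and that of Ywhaz in YAP_OE without any 1 control or YAP_OE 1, 4 or 5 (0.051 to 0.073).

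Bulk RNA cannot tell more cells of a type from more RNA per cell, and TAZ is known from several liver cell types. Summed CPM of the 10 macrophage and Kupffer cell markers were 4.91 to 20.8 in TdTomato, 154 to 1283 in LATS_KO and 421 to 898 in YAP_OE, and 10 and 9 of the 10 rose, beside 10% and 17.9% of all genes. For 8 cholangiocyte markers, 7 of them tested, the sums were 46.4 to 61.7, 109 to 4446 and 3791 to 6275, and 4 and 5 rose. For 10 endothelial markers the sums were 23.6 to 57.3, 18.4 to 318 and 136 to 204, and 2 and 2 rose, near the share of all genes. For 10 stellate cell and fibroblast markers they were 0.0774 to 11.9, 0 to 23.1 and 24.2 to 161, and 2 and 9 rose. Without TdTomato 1 and LATS_KO 3, where 13.7% and 27.2% of all genes were called higher, the rises were 10 and 9 for macrophage, 2 and 6 of 8 for cholangiocyte, 8 and 8 for endothelial and 3 and 9 for stellate cell markers. Cholangiocyte markers were at 4446, 1971 and 1350 CPM in LATS_KO 1, 2 and 3, where Wwtr1 was high, and at 219, 109 and 147 in LATS_KO 4, 5 and 6. The defining markers were a small part of these sums. Krt19 was at 2.71, 18.5 and 3.44 CPM and Krt7 at 4.55, 54.7 and 32.2 CPM in LATS_KO 1, 2 and 3. In YAP_OE Krt19 was at 3.11 to 8.08 CPM. Krt7 was there at 0.470 to 1.68 CPM and did not pass (edgeR, adjusted p = 0.13). Endothelial sums ran opposite to the cholangiocyte sums, at 101.1, 93.3 and 18.4 CPM in LATS_KO 1, 2 and 3 and at 318, 301 and 223 in LATS_KO 4, 5 and 6. In LATS_KO 3, which had the most Wwtr1, all 10 stellate cell markers and 8 of 10 endothelial markers were at 0 counts. Of the 2 defining markers of each list, the stellate markers Lrat and Reln, the endothelial marker Cdh5 and the macrophage marker Adgre1 were at 0 there, while Pecam1 was at 11.8 CPM and Csf1r at 88.1 CPM. The macrophage sum was 186 CPM, above LATS_KO 1 at 154 CPM, with 4 of 10 at 0. In this library 1 of 10 hepatocyte markers was also at 0, so zeros do not show that a cell type was absent. Sums of 10 hepatocyte markers were 102300 to 175978, 42479 to 184754 and 80138 to 141130 CPM, and 1 and 2 of 9 tested fell (1 and 6 of 10 without TdTomato 1 and LATS_KO 3). Of all genes 0.973% and 10.8% were called lower over 15 libraries, and 3.24% and 21.2% without those 2 libraries. Hepatocyte sums were 91603, 81622.5 and 42479 CPM in LATS_KO 1, 2 and 3, where Wwtr1 was high. In LATS_KO 4, 5 and 6 they were 175188, 159468 and 184754 CPM. Lymphocyte and mesothelial markers passed the filter on low counts in no case with 15 libraries. Lymphocyte sums were at most 0.192, 1.41 and 1.02 CPM, and mesothelial sums at most 0.155, 32.9 and 0.786 CPM. Neutrophil marker sums were 0 to 1.03, 0 to 21.2 and 1.37 to 3.40 CPM, and 2 and 1 of 4 tested rose. The part of other cell types in the Wwtr1 and Yap1 levels was not tested.

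The genes whose levels were most like each paralog were different. Likeness is the Pearson correlation of log2 CPM over the 15 libraries, among 9104 genes with a mean of at least 5 CPM, and is given without a test because libraries share groups and depth. For Wwtr1 the 6 highest were Osbpl7, a lipid-binding protein (0.99), Abcc5, an export transporter (0.98), Hbegf, a ligand of the EGF receptor (0.98), Cd2ap, an actin adaptor (0.98), Lrrc1, a relative of the polarity protein Scribble (0.98), and Lims1, an adaptor of focal adhesions (0.98). After subtraction of the group means they were at 0.95 to 0.98, over the same libraries by which they were chosen. By Spearman correlation the 6 ranked 7, 2, 242, 288, 12 and 253, and by Pearson correlation over the 13 libraries 9, 21, 88, 91, 8 and 15. For Yap1 the highest were the complement gene C2 (0.91), Dscr3 (0.89), the deacetylase gene Hdac5 (0.88), the claudin gene Cldn12 (0.88), the zinc finger gene Zfp266 (0.85) and Kank2, which binds at adhesions (0.84). Within groups these were at 0.014 to 0.66. By Spearman correlation they ranked 1, 7, 9, 20, 51 and 126, and by Pearson correlation over the 13 libraries 6, 4, 2, 13, 28 and 34. Yap1 and Wwtr1 were at 0.29 over 15 libraries and at −0.12 within groups, and Wwtr1 ranked 2068 of 9104 in likeness to Yap1. Over 13 libraries, without TdTomato 1 and LATS_KO 3, the correlation of Yap1 and Wwtr1 was 0.48. Their Spearman correlation over 15 libraries was 0.086.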

How the data were processed

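RNA-seq gene counts of 15 mouse liver libraries were analysed. The authors deposited raw counts per gene and library in the STAR layout, as whole numbers. Tools named in the submitters' processing notes are FastQC, Trimmomatic and STAR, with the build mm10. Versions and settings are not given in the sources used here. The column for reverse-stranded reads was used, since the forward column held 0.966% to 1.99% of stranded counts. Reads in no gene, unmapped or multiply mapped (14.2% to 92.5% of all reads of a library) stayed out of library sizes. CPM used TMM factors. Genes passing filterByExpr (13055) entered edgeR's quasi-likelihood test (edgeR 4.0.16, R 4.3.3), in 1 fit of all 15 libraries with the group as the term. Tests were two-sided, and p-values were adjusted across the tested genes by Benjamini-Hochberg at a threshold of 0.05. SE is the fold change over the root of the test statistic. The ratio test (pseudocount 0.5) used scipy 1.17.1. Alternatives used DESeq2 1.42.0 and limma 3.58.1. Levels under other scalings, and levels, list medians, marker counts and dispersion without TdTomato 1 and LATS_KO 3, were added after seeing the data. The procedure was tested on simulated data. Exon lengths came from GENCODE M21. The members, lists, tests and the rule for named genes were chosen with earlier results of these data known. That rule took Lats1, Lats2, Tead1 to Tead4, the 2 list members with the smallest adjusted p in each comparison with TdTomato, the 6 genes most like each paralog, and the first markers of each cell type list. Stk38l and Taok3, the 2 that fell of their list, were also named after their values were seen. Arhgef17 and Vgll3, the only or the fourth call of their list, were named after their values were seen.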

Additional observations from a re-analysis of the deposited data

Results flagged for a closer look

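Among the forward-strand shares of Yap1 and Wwtr1 in the LATS_KO and YAP_OE libraries, 1 had a 95% interval above the highest control share. In LATS_KO 3, 25 forward-strand reads against 649 on the reverse strand gave a share of 3.71% for Yap1 (95% Wilson interval 2.52% to 5.42%), while the highest control share was 0.324%, in TdTomato 4. The other 10 LATS_KO and YAP_OE libraries had 0.0784% to 0.325%. For Wwtr1 the highest share was 0.739% in YAP_OE 5 (95% Wilson interval 0.402% to 1.36%), which includes the highest control share of 0.687%. Over all genes the forward share of LATS_KO 3 was 1.99%, against 0.966% to 1.27% in the other libraries. The antisense gene Gm20416 (chromosome 9, 7965838 to 7977004) overlaps Yap1 in the annotation and has no row in the count files. Where these reads lie within the gene was not tested.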

How the results depend on the processing

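Yap1 in YAP_OE against TdTomato (0.72 to 1.35) and against LATS_KO (1.13 to 1.46), and Wwtr1 in YAP_OE against TdTomato (1.92 to 2.83), kept their direction and passed the test under all 25 alternatives. Yap1 in LATS_KO was called by DESeq2 (−0.35) and voom (−0.41), and in none of the other 23 (−0.49 to −0.11 over all). Wwtr1 in LATS_KO was lost in voom (0.48), in the fit of these 2 groups (1.94), without both TdTomato 1 and LATS_KO 3 (1.31) and without 4 single libraries (1.69 to 2.10, and 1.56 to 2.20 over all 15). Against LATS_KO, Wwtr1 in YAP_OE was called by voom (1.43). The log2 ratio differences were lost without any 1 control (1.84 to 2.41 in LATS_KO, 1.28 to 1.85 in YAP_OE) and without both TdTomato 1 and LATS_KO 3 (1.52 and 1.28). In these cases the unadjusted p was the smallest that the group sizes allow. With the replicate number as a block (replicate block), the 6 tests of the members gave the same calls and the ratio differences were 2.73 and 1.63 (exact sign-flip p = 0.125, the smallest for 4 pairs, adjusted 0.19). Same-numbered libraries had correlations of −0.25 to 0.23 over 13 pairs, with 4 over 0.1. These gave no sign that the numbers pair the libraries, but so few libraries cannot exclude it. Lats1 in YAP_OE (0.043) changed sign in voom (−0.32), without both TdTomato 1 and LATS_KO 3 (−0.37) and without TdTomato 1, YAP_OE 2 or YAP_OE 3 (−0.37, −0.019 and −0.064, with −0.37 to 0.33 over all single libraries), and Lats2 in LATS_KO (0.58) in voom (−0.096). Calls of Csnk1e in LATS_KO were lost in 14 of 25 alternatives (adjusted p up to 0.23), of Ywhah in LATS_KO in 10 (up to 0.13) and of Ywhaz in YAP_OE in 8 (up to 0.073). Over all genes, calls higher and lower in LATS_KO were 1311 and 127, and from 0 and 1 (2 groups alone, edgeR) to 2709 (DESeq2) and 1396 (voom). In YAP_OE they were 2332 and 1412, and from 1235 and 612 to 4694 and 4174. Between YAP_OE and LATS_KO they were 65 and 64, and from 9 and 4 to 3706 and 3619.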
